A study of Mus musculus with 32 samples.

Results

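The 34 genes described here encode proteins of the presynaptic vesicle and the active zone, and they were taken by name from the deposited tables of 54532 genes. All 34 were found and all 34 passed the filter on low counts, which kept 16723 genes. Hippocampi of 32 mice, collected at 12 months of age, were profiled by bulk RNA-seq. The groups 5xFAD/D-45113, 5xFAD/Veh, WT/D-45113 and WT/Veh held 8 mice each, with both sexes at 4 per group. 5xFAD mice express human transgenes with familial Alzheimer's disease mutations, driven by Thy1 regulatory sequences, and WT mice carry no transgene. D-45113 is a hydroxyl dendrimer (HD) conjugated to an inhibitor of CSF1R, the kinase on which microglia depend. It was given by repeated intraperitoneal injection over the month before the hippocampi were collected, and both vehicle groups received HD without the inhibitor. The comparisons ask whether D-45113 or the 5xFAD genotype changed the expression of the release machinery.

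A presynaptic terminal fills vesicles with transmitter, docks them at the active zone, fuses them with the membrane when calcium enters and then retrieves their membrane. Synapsins hold vesicles in reserve, active zone scaffolds and Munc13 proteins dock and prime them, SNARE proteins drive fusion, and synaptotagmins and complexins set its timing. Most steps are served by paralogous genes that differ between brain regions, so that glutamatergic neurons of the hippocampus rely on Slc17a7 (VGLUT1), Vamp2 and Syt1, and neurons of the thalamus and brainstem rely more on Slc17a6 (VGLUT2), Vamp1 and Syt2. In bulk tissue, fewer cells of a type and less RNA per cell cannot be told apart.

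Total counts ranged from 10707410 to 30368498 per mouse, and 3F and 4F of 5xFAD/D-45113 had the 2 lowest totals. Levels are given as FPKM, which are scaled for gene length and can be compared between genes, and fold changes are from edgeR fitted to the raw counts of all 32 mice. Adjusted p-values are from edgeR's quasi-likelihood test with Benjamini-Hochberg adjustment over the 16723 genes and were called below 0.05. Thy1 exceeded all WT levels in 14 of the 16 mice labelled 5xFAD, and lay at 423 CPM in 5xFAD/D-45113 mouse 1M and 523 CPM in 5xFAD/D-45113 mouse 4F, against at most 529 CPM in WT mice. Thy1 thus does not separate these 2 mice from WT mice, and whether their label is right is not settled by it. The microglia marker score was 0.04 or higher in all 8 5xFAD/D-45113 mice, these 2 included, against at most -0.23 in WT mice. Markers of tissue next to the hippocampus differed between mice. The summed level of 16 thalamus and habenula markers was 54.6 to 338 FPKM in 5xFAD/D-45113 mice, 38.1 to 87.3 FPKM in 5xFAD/Veh mice, 37.0 to 319 FPKM in WT/D-45113 mice and 39.2 to 278 FPKM in WT/Veh mice. Gbx2 was at 0 in 6 mice and Tnnt1 in 1 mouse, and the other thalamus and habenula markers were above 0 in all mice. The summed level of 16 choroid plexus markers was 30.7 to 3943 FPKM in 5xFAD/D-45113 mice, 18.4 to 598 FPKM in 5xFAD/Veh mice, 30.6 to 3431 FPKM in WT/D-45113 mice and 28.2 to 2403 FPKM in WT/Veh mice. The summed level of 12 CA pyramidal cell markers was at least 142 FPKM and that of 10 dentate granule cell markers at least 41.8 FPKM in every mouse.

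The members differed widely in level. In WT/Veh mice the highest median was that of Vamp2, the main vesicle SNARE of the forebrain, at 297 FPKM (lowest 266, highest 374), which was above 99.6% of the 20738 genes with a median above 0. The lowest was that of Unc13b, which encodes the priming factor Munc13-2, at 0.603 FPKM (0.335 to 0.996), above 33.98% of them. Between them, Cplx2 (273 FPKM), Rab3a (268 FPKM) and Cplx1 (261 FPKM) followed Vamp2, and Rims2 (6.94 FPKM), Cplx3 (1.67 FPKM) and Syn3 (0.741 FPKM) preceded Unc13b. In this order the ranges of each pair of neighbours overlapped, so that no step from one gene to the next exceeded the spread between mice. Some paralogs were close in level, as Cplx2 and Cplx1 were, and others were far apart. Vamp1 had a median of 13.5 FPKM beside the 297 FPKM of Vamp2, Syt2 had 10.5 FPKM beside 143.5 FPKM of Syt1, and Syn3 had 0.741 FPKM beside 199 FPKM of Syn1. The spread within WT/Veh was widest for Cplx3 (SD 0.99 on the log2 scale), Vamp1 (SD 0.76), Slc17a7 (SD 0.75) and Syt2 (SD 0.73), and narrowest for Vamp2 (SD 0.19) and Cplx1 (SD 0.21).

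**Figure D1:**
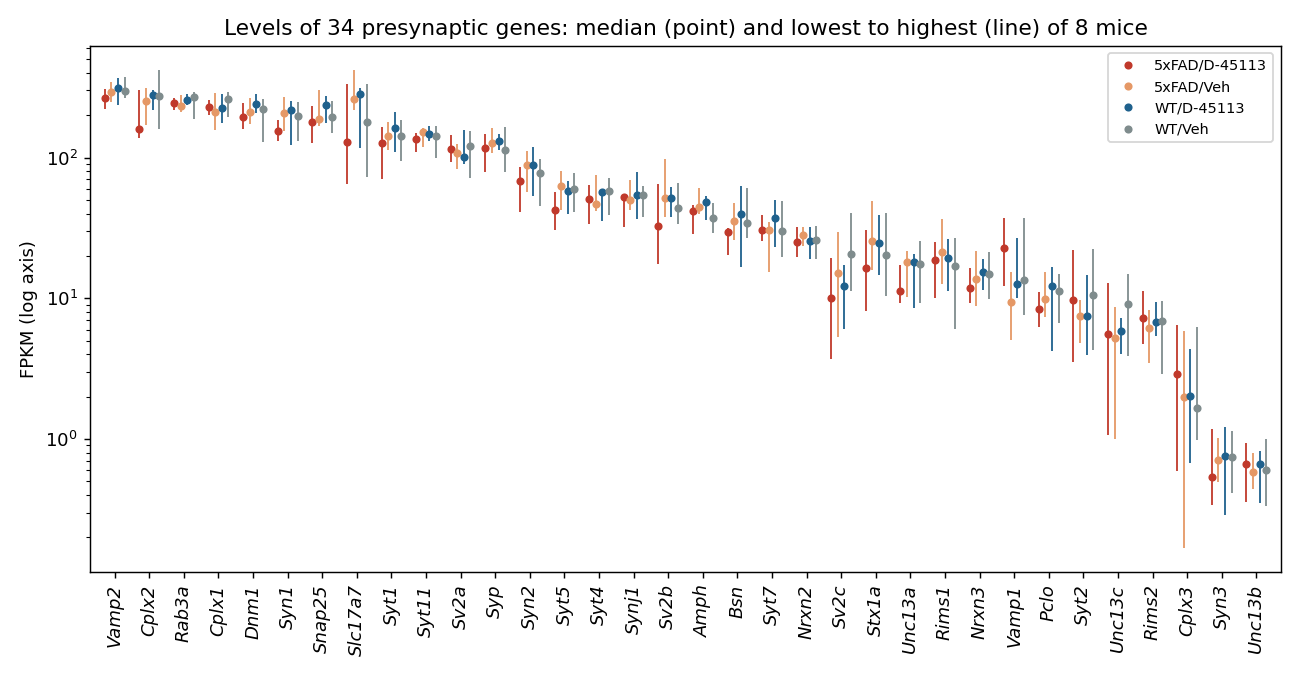
Levels of the 34 genes in FPKM on a log axis, ordered by their median in WT/Veh mice, with a point for the median and a line from the lowest to the highest of 8 mice in each of the 4 groups. The order runs from Vamp2 at 297 FPKM to Unc13b at 0.603 FPKM, and the ranges overlap for all 34 genes in each of the 4 comparisons of 2 groups.

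Promoters are shown for Vamp1, the member that rose, and for Sv2b, Slc17a7 and Unc13a. The latter are only some of the 9 members whose unadjusted p was below 0.05 for a lower level with D-45113 in 5xFAD mice. RefSeq promoters (GRCm38.p6) matched 26 of the 34 members with 36 start sites, and the 250 bases before each start were searched. Syt5, the member called lower in that comparison, was not among the matched members. The GC box bound by Sp1 factors was searched with the letters GGGCGG, and the core of the cAMP response element was searched with TGACG. For the TATA box of the basal promoter the letters were TATAAA, and the last motif was the CCAAT box bound by NF-Y. All were searched on both strands, and matches are in capitals. Bases inside the gene's span in the deposited annotation are left out. The Vamp1 sequence is chr6:125215331-125215550 on the plus strand, that of Sv2b is chr7:75309263-75309512 on the minus strand, that of Slc17a7 is chr7:45163671-45163920 on the plus strand and that of Unc13a is chr8:71671758-71672007 on the minus strand.
Vamp1: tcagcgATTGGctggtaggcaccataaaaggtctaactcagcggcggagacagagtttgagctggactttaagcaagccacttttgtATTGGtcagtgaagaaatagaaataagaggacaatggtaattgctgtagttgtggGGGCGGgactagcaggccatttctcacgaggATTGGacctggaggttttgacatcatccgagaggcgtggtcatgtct
Sv2b: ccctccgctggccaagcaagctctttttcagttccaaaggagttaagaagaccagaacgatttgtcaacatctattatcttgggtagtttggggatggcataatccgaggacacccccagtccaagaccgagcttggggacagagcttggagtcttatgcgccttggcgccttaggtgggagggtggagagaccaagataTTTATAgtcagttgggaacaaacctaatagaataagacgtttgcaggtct
Slc17a7: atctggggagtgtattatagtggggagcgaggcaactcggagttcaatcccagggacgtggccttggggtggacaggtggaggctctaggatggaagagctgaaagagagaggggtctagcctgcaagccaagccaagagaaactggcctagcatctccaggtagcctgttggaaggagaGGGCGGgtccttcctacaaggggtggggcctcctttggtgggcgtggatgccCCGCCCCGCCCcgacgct
Unc13a: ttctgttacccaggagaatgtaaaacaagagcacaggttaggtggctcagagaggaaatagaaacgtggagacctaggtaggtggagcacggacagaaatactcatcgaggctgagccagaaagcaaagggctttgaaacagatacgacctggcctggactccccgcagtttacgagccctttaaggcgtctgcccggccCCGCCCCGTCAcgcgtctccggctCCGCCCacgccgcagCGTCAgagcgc
Vamp1 has 3 CCAAT matches and 1 GC box, Slc17a7 has 3 GC boxes of which 2 share a base, Unc13a has 2 GC boxes and 2 response element cores, and the Sv2b start shown, 1 of 4, has a TATA match that begins 50 bases before the start. The GC box was present in 19 of the 36 promoters of members (52.8%), against 32.7% of all 32851 promoters of the same length. The response element core was present in 6 (16.7%, against 17.8%), CCAAT in 8 (22.2%, against 33.8%) and TATAAA in 2 (5.56%, against 12.4%), both of them starts of Sv2b. These matches are a description of the letters and were set against no test.

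In 5xFAD mice, 2 members passed the test for D-45113 against vehicle. Vamp1 rose and Syt5 fell in 5xFAD/D-45113 compared to 5xFAD/Veh mice, which is 2 of 34 members in a comparison that called 3.96% of all genes (2.21% higher and 1.75% lower). The other 32 members did not pass the test. Both calls were lost when the thalamus and habenula marker score described below was a covariate, and that of Syt5 was also lost without any 1 of 7 mice. The fit with this covariate called 17 of all 16723 genes, against 662 without it. The loss was therefore not particular to these 2 members. The median log2 fold change of the 34 members was -0.17, with 25 of 34 below 0, and that of all genes tested was 0.01, with 48.8% below 0. At an unadjusted p below 0.05 there were 11 members, 2 higher and 9 lower, and 19.9% of all genes. The same 5xFAD/D-45113 mice had higher levels of 16 of 16 thalamus and habenula markers (median log2 fold change 1.34, 2 called) and of 16 of 16 choroid plexus markers (median 2.38, 1 called), and 11 of 12 CA pyramidal cell markers were below 0 (median -0.35), of which none passed the test, while 1 of the 12 was called higher. Of the dentate granule cell markers 9 of 10 were below 0 (median -0.31, 1 called lower), and of the striatum and midbrain markers 9 of 12 were below 0 (median -0.91, none called lower and 1 called higher). The part of these tissues in the members' values was not tested beyond the fits with marker scores as covariates.

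**Figure D2:**
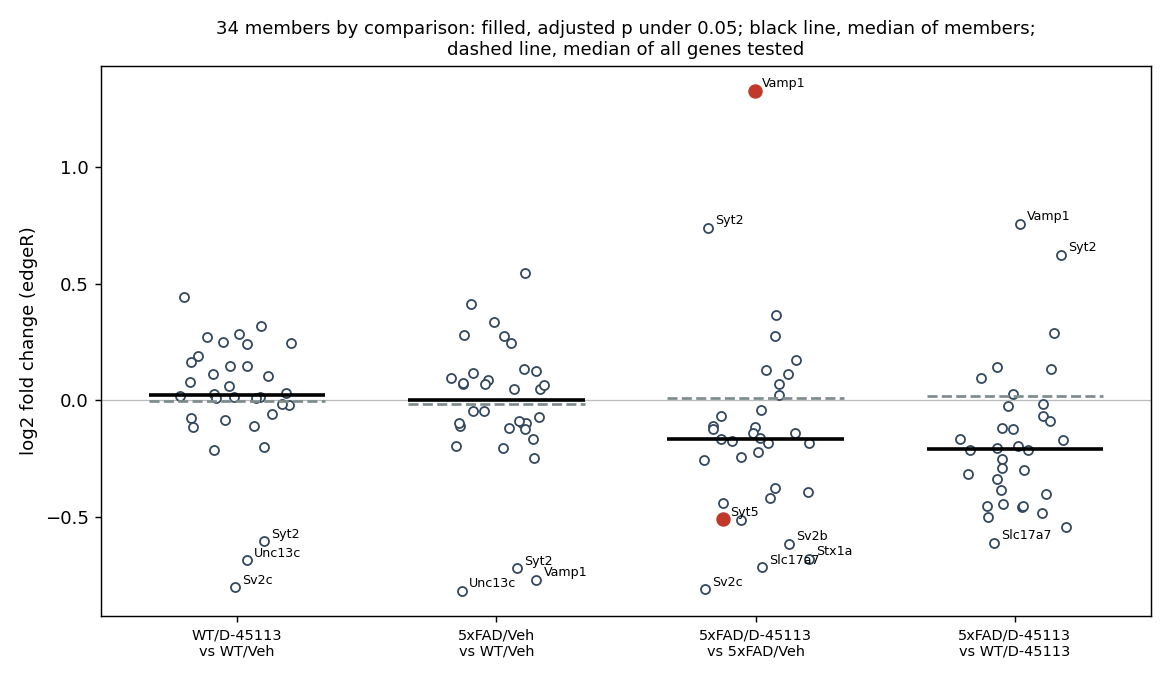
Log2 fold changes of the 34 members in 4 comparisons, with 1 circle per gene. Filled circles passed an adjusted p of 0.05 in edgeR, the black line is the median of the members and the dashed line the median of all genes tested. The 2 filled circles are Vamp1 at 1.33 and Syt5 at -0.51 in 5xFAD/D-45113 against 5xFAD/Veh mice, and the medians of the members are 0.02, 0.00, -0.17 and -0.21 from left to right.

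Among the SNARE genes, Vamp1 (synaptobrevin 1, ENSMUSG00000030337) encodes the vesicle SNARE best known from spinal cord and brainstem synapses and spans positions 125215551 to 125245964 of chromosome 6 (mm10), where Tapbpl and Cd27 lie inside its span on the opposite strand. It had 12.3, 22.8 and 37.2 FPKM (lowest, median and highest) in 5xFAD/D-45113 mice, against 5.07, 9.35 and 15.4 FPKM in 5xFAD/Veh mice. In 5 of the 8 5xFAD/D-45113 mice Vamp1 was above every 5xFAD/Veh mouse, and the groups overlapped. The log2 fold change was 1.33 (SE 0.299, adjusted p = 0.0113 from edgeR). Among treated 5xFAD females, 1F, 3F and 4F had 31.8, 34.3 and 37.2 FPKM and 2F had 14.3 FPKM, against 5.07 to 9.74 FPKM in 5xFAD/Veh females. In males the 5xFAD/D-45113 values were 12.3 to 26.3 FPKM, against 9.13 to 15.4 FPKM in 5xFAD/Veh males. The log2 fold change was 2.02 in females alone and 0.63 in males alone (adjusted p = 0.525 in males, edgeR). The fit on males called 0 of 16697 genes, and that on females called 116 of 17375. The difference between the sexes, 1.38 on the log2 scale, did not pass the test (adjusted p = 0.909 for the interaction in edgeR), and neither did any of the 34 members or any of the genes tested (0% called).

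In WT mice Vamp1 was 9.98, 12.6 and 26.6 FPKM (lowest, median and highest) with D-45113, against 7.67, 13.5 and 37.0 FPKM with vehicle. The highest values in WT mice, 26.6 FPKM in WT/D-45113 mouse 1F and 37.0 FPKM in WT/Veh mouse 3M, lay within the range of the 5xFAD/D-45113 mice. Both were also the mice with the highest thalamus and habenula marker sum of their group. Over the 32 mice Vamp1 correlated with the thalamus and habenula marker score (Pearson r = 0.73, Spearman rho = 0.79, n = 32 mice from 4 groups, given as a description), with r = 0.72 when the 2 mice farthest from the median score were left out and r = 0.63 after each group was centred on its mean. With this score as a covariate the log2 fold change of Vamp1 in 5xFAD/D-45113 against 5xFAD/Veh mice was 0.80 (SE 0.249, adjusted p = 0.193, edgeR). With the choroid plexus score added it was 0.89 (adjusted p = 0.152, edgeR), and the call held in neither fit. These fits called 17 and 9 of all 16723 genes. Without covariates the log2 fold change of Vamp1 was 1.20 to 1.47 when each mouse was left out in turn, and passed the test each time. The ratio of Vamp1 to Vamp2 was 0.0462, 0.0884 and 0.137 (lowest, median and highest) in 5xFAD/D-45113 mice, against 0.0147, 0.0325 and 0.0532 in 5xFAD/Veh mice. Vamp2 itself was 222, 267 and 309 FPKM in 5xFAD/D-45113 mice, against 247, 291 and 345 FPKM in 5xFAD/Veh mice (log2 fold change -0.14 with SE 0.0966, adjusted p = 0.441).

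**Figure D3:**
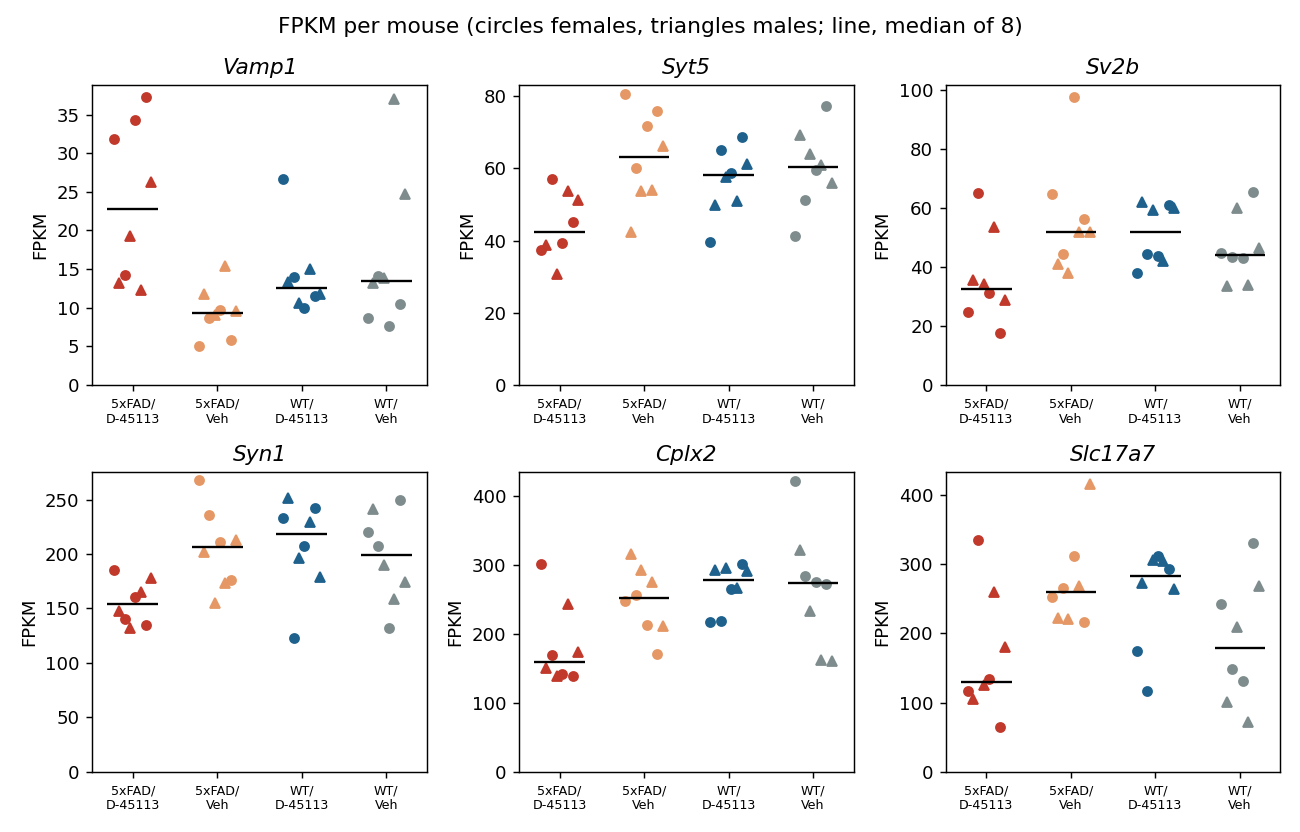
FPKM per mouse of Vamp1, Syt5, Sv2b, Syn1, Cplx2 and Slc17a7 in the 4 groups, with circles for females, triangles for males and a line at the median of 8. Vamp1 is high in 3 of the 4 5xFAD/D-45113 females, between 31.8 and 37.2 FPKM, and Syt5 lies lowest in 5xFAD/D-45113 mice with a median of 42.3 FPKM.

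The remaining SNARE and complexin genes had log2 fold changes of -0.68 to 0.07. Cplx2, a complexin that binds the assembled SNARE complex in excitatory neurons, was 138.5, 159 and 300.4 FPKM (lowest, median and highest) in 5xFAD/D-45113 mice, against 171, 251.5 and 315 FPKM in 5xFAD/Veh mice. In 5 of the 8 5xFAD/D-45113 mice it was below every 5xFAD/Veh mouse, and mouse 1F (300.4 FPKM) was among the high ones, and the log2 fold change was -0.44 (SE 0.173, adjusted p = 0.138, edgeR). Without mouse 1F it was -0.58 and passed the test (adjusted p = 0.0460). No other fit that left out 1 mouse called Cplx2, and over all 32 its log2 fold change was -0.58 to -0.39 (adjusted p up to 0.242, edgeR). Under the 18 other settings it was -0.63 to -0.14 (adjusted p 0.0955 to 0.894). Its paralog Cplx1, another complexin, was 201, 228 and 255 FPKM in 5xFAD/D-45113 mice, against 158, 209 and 288 FPKM in 5xFAD/Veh mice (log2 fold change 0.07, adjusted p = 0.808). The ratio of Cplx1 to Cplx2 had a median of 1.42 in 5xFAD/D-45113 mice and 0.861 in 5xFAD/Veh mice. Stx1a, a target membrane SNARE, was 8.13, 16.5 and 30.6 FPKM in 5xFAD/D-45113 mice, against 15.8, 25.5 and 49.5 FPKM in 5xFAD/Veh mice (log2 fold change -0.68 with SE 0.270, adjusted p = 0.145). Snap25, the other target membrane SNARE, was 126.5, 180.2 and 232 FPKM in 5xFAD/D-45113 mice, against 169, 188 and 299.8 FPKM in 5xFAD/Veh mice (log2 fold change -0.17, adjusted p = 0.517). For these genes the ranges of the groups overlapped and the differences did not pass the test with all 32 mice.

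Of the 6 synaptotagmins, Syt5 fell, and 4 of the 6 were below 0. Syt5 (ENSMUSG00000004961, positions 4539765 to 4547541 of chromosome 7, mm10) encodes a calcium-binding synaptotagmin. It had 30.7, 42.3 and 57.1 FPKM (lowest, median and highest) in 5xFAD/D-45113 mice, against 42.4, 63.2 and 80.6 FPKM in 5xFAD/Veh mice. All 8 5xFAD/D-45113 mice were below the 5xFAD/Veh median and 4 were below every 5xFAD/Veh mouse. The log2 fold change was -0.51 (SE 0.138, adjusted p = 0.0305, edgeR). The call was lost in 7 of the 32 fits that left out 1 mouse, without 5xFAD/D-45113 mouse 1F, 3F, 1M or 2M (adjusted p = 0.0570, 0.0538, 0.0605 and 0.0668) and without 5xFAD/Veh mouse 1F, 3F or 4F (adjusted p = 0.0778, 0.0602 and 0.0679), and the log2 fold change was between -0.58 and -0.46 in all 32. It was also lost with the thalamus and habenula score as a covariate (log2 fold change -0.33, adjusted p = 0.431). Syt5 had r = -0.54 with that score over 32 mice (rho = -0.55, and r = -0.43 with groups centred).

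Syt1, the sensor of fast release in the forebrain, was 70.0, 127 and 165.5 FPKM in 5xFAD/D-45113 mice, against 113, 141 and 180.1 FPKM in 5xFAD/Veh mice (log2 fold change -0.24, adjusted p = 0.417, edgeR). Syt2, a fast sensor of hindbrain synapses and of some interneurons, was 3.53, 9.65 and 22.1 FPKM in 5xFAD/D-45113 mice, against 4.81, 7.43 and 9.72 FPKM in 5xFAD/Veh mice. Of the 8 5xFAD/D-45113 mice, 4 were above every 5xFAD/Veh mouse and 1 was below all of them, and the log2 fold change was 0.74 (SE 0.327, adjusted p = 0.198). Syt11, the most abundant synaptotagmin besides Syt1, was 109.5, 136 and 151 FPKM in 5xFAD/D-45113 mice, against 118, 152 and 162 FPKM in 5xFAD/Veh mice, and Syt7, a slow sensor, was 25.6, 30.7 and 39.1 FPKM in 5xFAD/D-45113 mice, against 15.5, 30.5 and 34.7 FPKM in 5xFAD/Veh mice. Neither difference passed the test (adjusted p = 0.543 for Syt11 and 0.621 for Syt7).

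All 3 synapsins, which tether vesicles in the reserve pool, were lower in 5xFAD/D-45113 mice and none passed the test. Syn1 was 132, 154 and 185 FPKM (lowest, median and highest) in 5xFAD/D-45113 mice, against 155, 206.5 and 268 FPKM in 5xFAD/Veh mice. All 8 5xFAD/D-45113 mice were below the 5xFAD/Veh median, and the log2 fold change was -0.39 (SE 0.134, adjusted p = 0.0854, edgeR). Syn2 was 41.0, 67.9 and 85.4 FPKM in 5xFAD/D-45113 mice, against 56.8, 88.4 and 110.5 FPKM in 5xFAD/Veh mice (log2 fold change -0.42 with SE 0.178, adjusted p = 0.175). Syn3 had a log2 fold change of -0.18 (adjusted p = 0.762). The synapsin genes hold Timp1, Timp4 and Timp3 on the opposite strand, and reads of nested genes are uncertain because no source used here says whether the counting used strand.

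Of the 4 vesicle membrane proteins, 3 were lower and none passed the test. Sv2b, a vesicle glycoprotein of glutamatergic terminals, was 17.6, 32.7 and 64.9 FPKM in 5xFAD/D-45113 mice, against 37.8, 52.0 and 97.7 FPKM in 5xFAD/Veh mice. In 6 of the 8 5xFAD/D-45113 mice it was below every 5xFAD/Veh mouse, with 2F (64.9 FPKM) and 3M (53.6 FPKM) among the high ones, and the log2 fold change was -0.62 (SE 0.207, adjusted p = 0.0815, edgeR). Without 5xFAD/D-45113 mouse 2F it was -0.79 and passed the test (adjusted p = 0.0191), and it also passed without mouse 3M (-0.72, adjusted p = 0.0352) and in DESeq2 (-0.62, adjusted p = 0.0431). No other fit that left out 1 mouse called Sv2b, and over all 32 its log2 fold change was -0.79 to -0.45 (adjusted p up to 0.205, edgeR). Under the 18 other settings, DESeq2 included, it was -0.91 to -0.27 (adjusted p 0.0431 to 0.723). Sv2c, the basal ganglia paralog, was 3.71, 10.1 and 19.4 FPKM in 5xFAD/D-45113 mice, against 5.27, 15.2 and 29.4 FPKM in 5xFAD/Veh mice (log2 fold change -0.81 with SE 0.325, adjusted p = 0.148). The striatum and midbrain markers, with whose score Sv2c varied most closely (r = 0.88 over 32 mice), were also lower in this comparison (median -0.91), and their part in the Sv2c value was not tested. Sv2a, the broadly expressed paralog, was 93.7, 115 and 144 FPKM in 5xFAD/D-45113 mice, against 83.3, 108 and 124 FPKM in 5xFAD/Veh mice (log2 fold change 0.11, adjusted p = 0.695), and Syp (synaptophysin) was 79.2, 117 and 146 FPKM in 5xFAD/D-45113 mice, against 109, 128 and 163 FPKM in 5xFAD/Veh mice (log2 fold change -0.18, adjusted p = 0.439).

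Slc17a7, which loads glutamate into vesicles of hippocampal and cortical neurons, was 65.3, 129.7 and 335 FPKM in 5xFAD/D-45113 mice, against 217, 259 and 416 FPKM in 5xFAD/Veh mice. In 6 of the 8 5xFAD/D-45113 mice it was below every 5xFAD/Veh mouse, while 2F (335 FPKM) was exceeded by 1 of them (416 FPKM), and the log2 fold change was -0.72 (SE 0.284, adjusted p = 0.144, edgeR). It passed the test without 5xFAD/D-45113 mouse 2F (-0.95, adjusted p = 0.0434), in a fit that called 714 of 16872 genes. No other fit that left out 1 mouse called Slc17a7, and over all 32 its log2 fold change was -0.95 to -0.60 (adjusted p up to 0.260, edgeR). Under the 18 other settings it was -0.86 to -0.27 (adjusted p 0.0727 to 0.870). Its paralog Slc17a6, the transporter of thalamic and brainstem neurons and not one of the 34, rose and had 8.93, 23.8 and 61.3 FPKM in 5xFAD/D-45113 mice, against 2.22, 3.96 and 10.2 FPKM in 5xFAD/Veh mice (log2 fold change 2.58 with SE 0.563, adjusted p = 0.0101). The ratio of Slc17a6 to Slc17a7 was 0.0267 to 0.488 in 5xFAD/D-45113 mice, against 0.00881 to 0.0456 in 5xFAD/Veh mice, and reached 0.527 in WT/Veh mouse 3M, a mouse with a high thalamus and habenula sum. Over the 32 mice Slc17a7 had r = -0.67 with the thalamus and habenula score (rho = -0.61) and r = 0.73 with the CA pyramidal cell score (rho = 0.67).

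Of the 8 genes for the vesicle GTPase and the active zone, 4 were higher and 4 lower, and none passed the test. Rab3a, the most abundant of them, was 216, 242 and 265.5 FPKM in 5xFAD/D-45113 mice, against 211, 233 and 277 FPKM in 5xFAD/Veh mice (log2 fold change 0.02, adjusted p = 0.932, edgeR). Unc13a (Munc13-1, which primes vesicles at most forebrain synapses) was 9.24, 11.2 and 17.2 FPKM in 5xFAD/D-45113 mice, against 10.3, 18.2 and 21.6 FPKM in 5xFAD/Veh mice, with all 8 treated mice below the 5xFAD/Veh median (log2 fold change -0.52, adjusted p = 0.115). The log2 fold change was -0.38 for the scaffold Bsn (adjusted p = 0.274) and -0.22 for the scaffold Pclo (adjusted p = 0.575). For Rims1 and Rims2, which tether calcium channels at the active zone, the values were -0.26 and 0.37 (adjusted p = 0.602 and 0.259). Among the endocytosis genes Amph, Dnm1 and Synj1 the log2 fold changes were -0.17 to -0.11, and those of the neurexins Nrxn2 and Nrxn3 were -0.14 and -0.16, with adjusted p between 0.457 and 0.676 for these 5 genes.

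Of 55 other presynaptic genes tested, 3 rose and none fell in 5xFAD/D-45113 compared to 5xFAD/Veh mice, with a median log2 fold change of -0.12 and 39 of 55 below 0. Of all genes, 2.21% were called higher and 1.75% lower in this comparison, and 48.8% were below 0. The 3 presynaptic genes that rose were Slc17a6, Rims3, a short RIM protein (log2 fold change 1.17, adjusted p = 0.0280, edgeR), and Syt9, a synaptotagmin that can act as a calcium sensor (log2 fold change 1.48, adjusted p = 0.0459). Rims3 was 17.7, 34.6 and 47.6 FPKM in 5xFAD/D-45113 mice, against 7.68, 12.5 and 27.5 FPKM in 5xFAD/Veh mice. The highest WT values of Slc17a6 and Rims3 were again those of WT/D-45113 mouse 1F (46.8 and 50.8 FPKM) and WT/Veh mouse 3M (38.2 and 43.3 FPKM).

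No member passed the test between the genotypes under vehicle. In 5xFAD/Veh compared to WT/Veh mice 0 of 34 members were called by edgeR, DESeq2 or limma voom, in a comparison that called 3.86% of all genes. There were 4 members at an unadjusted p below 0.05, near the share of 11.1% over all genes. The median log2 fold change was 0.00 with 17 of 34 below 0, against 53.0% of all genes. The smallest p was that of Vamp1, with 5.07, 9.35 and 15.4 FPKM in 5xFAD/Veh mice, against 7.67, 13.5 and 37.0 FPKM in WT/Veh mice, which is -0.77 on the log2 scale (SE 0.295, adjusted p = 0.219). Amph, which links endocytic membrane to dynamin, was 39.8, 44.2 and 60.4 FPKM in 5xFAD/Veh mice, against 29.0, 37.3 and 47.2 FPKM in WT/Veh mice, and all 8 5xFAD/Veh mice were above the WT/Veh median (log2 fold change 0.28, SE 0.117, adjusted p = 0.320). Unc13c, the Munc13 paralog of cerebellar granule cells, was 0.999, 5.26 and 8.68 FPKM in 5xFAD/Veh mice, against 3.89, 9.17 and 14.8 FPKM in WT/Veh mice, with all 8 below the WT/Veh median (log2 fold change -0.82, SE 0.347, adjusted p = 0.322). In this comparison 16 of 16 thalamus and habenula markers were below 0 (median -0.93). So were 16 of 16 choroid plexus markers (median -1.69) and 11 of 12 striatum and midbrain markers (median -0.58). Under the 18 other settings, covariate fits included, the log2 fold change was -0.94 to -0.31 for Vamp1 and -0.93 to -0.72 for Unc13c. The part of these tissues in both values was not tested beyond the fits with thalamus and choroid plexus scores. Among males alone Sv2a, Syt2 and Syt4 were lower in 5xFAD/Veh mice and passed the test, and the difference between the sexes did not (adjusted p = 0.361 for Sv2a, 0.386 for Syt4). The fit on males called 478 of 16697 genes.

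No member passed the test for D-45113 in WT mice. In WT/D-45113 compared to WT/Veh mice 0 of 34 were called by edgeR, DESeq2 or limma voom, where edgeR called 0.0239% of all genes. An unadjusted p below 0.05 was found for 3 members and for 6.81% of all genes. The median log2 fold change was 0.02, with 12 of 34 below 0, against 50.5% of all genes. Amph was 36.1, 48.4 and 53.6 FPKM in WT/D-45113 mice, against 29.0, 37.3 and 47.2 FPKM in WT/Veh mice, with 4 of 8 above every WT/Veh mouse (log2 fold change 0.32, SE 0.117, adjusted p = 0.582). Sv2c was 6.02, 12.3 and 17.2 FPKM in WT/D-45113 mice, against 11.2, 20.6 and 40.5 FPKM in WT/Veh mice, and all 8 WT/D-45113 mice were below the WT/Veh median (log2 fold change -0.80, SE 0.324, adjusted p = 0.641). Dnm1, the dynamin that cuts endocytic vesicles free, was 206, 239 and 282 FPKM in WT/D-45113 mice, against 128, 221 and 262 FPKM in WT/Veh mice (log2 fold change 0.25 with SE 0.120, adjusted p = 0.714). In the same comparison 10 of 12 striatum and midbrain markers were below 0 (median -0.94). Sv2c had r = 0.88 with the score of these markers over 32 mice (rho = 0.83, and r = 0.84 with groups centred), the highest value of any member with any score.

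Compared to WT/D-45113 mice, 5xFAD/D-45113 mice had lower values for 27 of 34 members, and none passed the test in edgeR, in a comparison that called 5.06% of all genes. The median log2 fold change was -0.21, against 0.02 for all genes tested, and 13 members had an unadjusted p below 0.05, of which 12 were lower. Over all genes 18.3% had an unadjusted p below 0.05, and 47.4% were below 0. In the same comparison 10 of 10 dentate granule cell markers (median -0.59, 1 called lower) and 11 of 12 CA pyramidal cell markers (median -0.49, none called) were below 0, and 15 of 16 thalamus and habenula markers were above 0 (median 0.51, none called). The part of the dentate and CA markers in the members' values was not tested, and with the thalamus and habenula score as a covariate the members' median was -0.18. DESeq2 called 2 members (Syn1 and Cplx2) and limma voom called 1 (Cplx2), and over all 16723 genes they called 1150 and 871. Cplx2 was 138.5, 159 and 300.4 FPKM in 5xFAD/D-45113 mice, against 216, 278 and 300.3 FPKM in WT/D-45113 mice, and 6 of 8 lay below every WT/D-45113 mouse (log2 fold change -0.55, SE 0.173, adjusted p = 0.0604, edgeR). Syn1 was 132, 154 and 185 FPKM in 5xFAD/D-45113 mice, against 123, 218 and 251 FPKM in WT/D-45113 mice, where mouse 2F was the low one (log2 fold change -0.40, SE 0.134, adjusted p = 0.0736). Bsn, which encodes the scaffold bassoon, was 20.4, 29.4 and 31.3 FPKM in 5xFAD/D-45113 mice, against 16.8, 39.7 and 63.0 FPKM in WT/D-45113 mice (log2 fold change -0.50, SE 0.193, adjusted p = 0.139). Cplx2 passed when 5xFAD/D-45113 mouse 1F (-0.69, adjusted p = 0.0102) or 3M, WT/D-45113 mouse 1F or 2F, or WT/Veh mouse 1F or 4M was left out. Vamp1 passed without WT/D-45113 mouse 1F (0.95, adjusted p = 0.0450), and Sv2b without 5xFAD/D-45113 mouse 2F (-0.66, adjusted p = 0.0462). Cplx2, Vamp1 and Sv2b passed in no other fit that left out 1 mouse. Without WT/D-45113 mouse 2F, 4 members were called (Syn1, Cplx2, Bsn and Pclo), all lower in 5xFAD/D-45113 mice, in a fit that called 1006 of 16874 genes. This comparison shares its 5xFAD/D-45113 mice with the one against 5xFAD/Veh, so that the lower values in both rest partly on the same mice.

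The genotype by treatment interaction, the difference between the effect of D-45113 in 5xFAD and in WT mice, was called for 0 of 34 members and for 0% of all genes, by edgeR as by DESeq2 and limma voom for the members. At an unadjusted p below 0.05 there were 11 members, 9 of them below 0, and 9.51% of all genes. Vamp1 had the smallest p (log2 value 1.53, SE 0.418, adjusted p = 0.312), followed by Amph (-0.49, SE 0.166, adjusted p = 0.363) and Syt2 (1.35, SE 0.463, adjusted p = 0.364), and Slc17a7 had -1.16 (SE 0.401, adjusted p = 0.364). The effect of D-45113 on the members is therefore not shown to differ between the genotypes. Females and males, compared across the 4 groups, gave 0 calls among the 34 members by edgeR, DESeq2 and limma voom, and 0.0478% of all genes were called. An unadjusted p below 0.05 was found for 0 members and for 4.14% of all genes. The members with the smallest p were Cplx3 (log2 fold change 0.68 in females over males), Nrxn2 (0.15) and Dnm1 (0.10).

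The members did not move as 1 block from mouse to mouse. Over the 32 mice the 561 pairs of members had a median Pearson r of 0.18, between -0.66 (Sv2b and Vamp1) and 0.86 (Bsn and Pclo), and 384 pairs were positive. These values describe mice of 4 groups in the same set of libraries. The closest pairs besides the scaffolds Bsn and Pclo (rho = 0.88) were Syt1 and Synj1 (r = 0.86, rho = 0.83), the phosphatase that strips clathrin from vesicles, and Cplx2 and Unc13a (r = 0.84, rho = 0.75). Nrxn3 followed the mean of the other 33 members most closely (r = 0.83, rho = 0.82), and Vamp1 least closely (r = -0.41, rho = -0.36). With the thalamus and habenula score 25 of 34 members had a negative r, lowest for Slc17a7 (-0.67) and Stx1a (-0.66), and the positive ones were led by Vamp1 (0.73), Cplx1 (0.48), Sv2a (0.46) and Syt2 (0.42). With the choroid plexus score 31 of 34 had a negative r, lowest for Syn1 (-0.58).

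**Figure D4:**
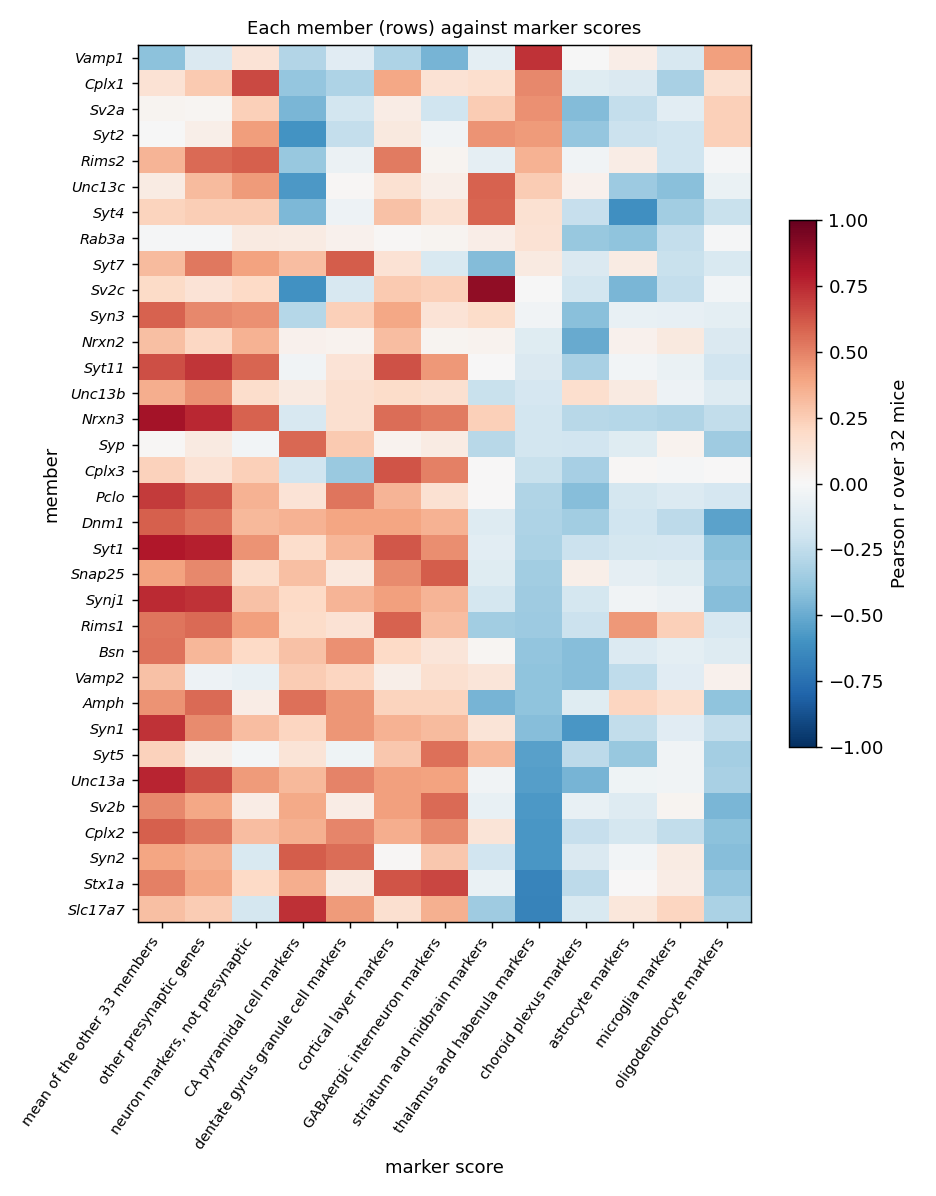
Pearson r over 32 mice between the log2 CPM of each member (rows, ordered by their r with the thalamus and habenula score) and 13 scores (columns), from blue at -1 to red at 1. Vamp1 stands at the top of the thalamus and habenula column with 0.73 and Slc17a7 at its foot with -0.67, and Sv2c has 0.88 with the striatum and midbrain score.

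The median of the members' centred log2 CPM in each mouse was -0.39 to 0.07 in 5xFAD/D-45113 mice (median -0.16), -0.16 to 0.24 in 5xFAD/Veh mice (0.05), -0.14 to 0.33 in WT/D-45113 mice (0.08) and -0.22 to 0.19 in WT/Veh mice (0.10). The lowest value of the 32 was that of 5xFAD/D-45113 mouse 4F, a mouse with a thalamus and habenula score of 1.68 and Thy1 within the WT range. With 5xFAD/D-45113 mice 1M and 4F left out, the median log2 fold change of the members against 5xFAD/Veh mice was -0.12, and it was -0.11 without the 3 mice of the highest thalamus and habenula score. With the thalamus and habenula score as a covariate it was -0.09 with 27 of 34 members below 0, and with the choroid plexus score added it was -0.04 with 20 of 34 below 0. In both of these fits 0 members were called, and 17 and 9 of all 16723 genes were.

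**Figure D5:**
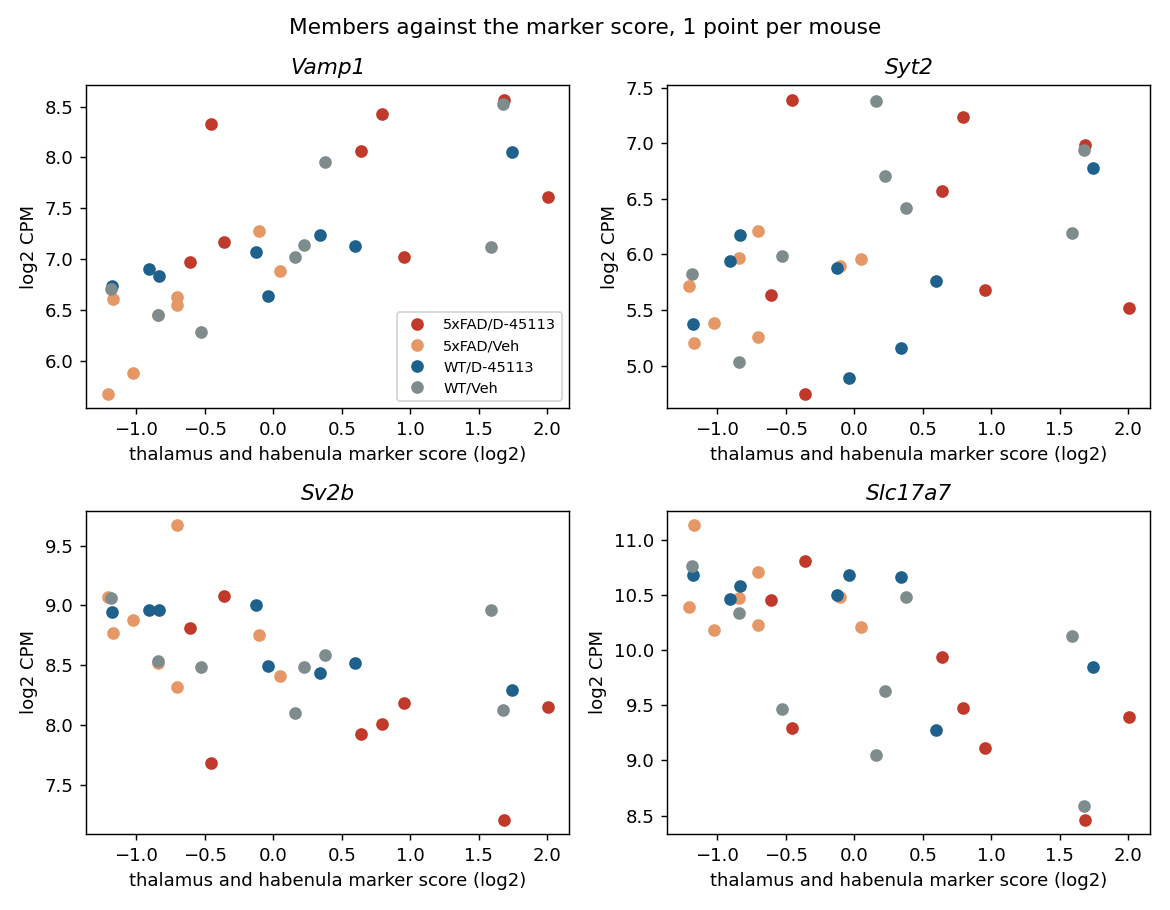
Log2 CPM of Vamp1, Syt2, Sv2b and Slc17a7 against the thalamus and habenula marker score of each mouse, coloured by group. Vamp1 (r = 0.73) and Syt2 (r = 0.42) lie higher at high scores, Sv2b (r = -0.58) and Slc17a7 (r = -0.67) lie lower, and the high scores include mice of all groups except 5xFAD/Veh.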

How the data were processed

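Hippocampal RNA-seq of 32 mice was grouped by the deposited labels. Raw counts and FPKM values (FPKM are counts scaled for gene length and effective library size) were deposited for each gene by the authors, who mapped to mm10. For the aligner and the counter, the sources used here name no tool. The main test ran in R 4.3.3 and used edgeR 4.0.16 (filterByExpr, TMM, robust quasi-likelihood model with 4 groups and 32 mice, Benjamini-Hochberg adjustment, called at 0.05), and sex was added for the comparison of females and males. The SE of a fold change is its size divided by the square root of F and is not printed near 0. A positive log2 fold change is higher in the group named first. Marker scores are means over a list of log2 CPM (prior count 2) centred on the 32 mice. Thy1 was left out of the neuron score. Alternatives were DESeq2 1.42.0, limma 3.58.1 (voom, and trend on log2(FPKM + 1) and log2(FPKM + 0.1)), RLE factors, other filters on low counts, sex, a replicate block, marker score covariates, only the groups compared, 1 sex, and each mouse left out. The steps were tested on simulated counts. Python 3.11.15 and matplotlib 3.10.9 drew the figures.

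The members and the gene lists were chosen with earlier results of these data known. Members were named in full where their adjusted p was below 0.05 in any comparison, where their p was among the 3 smallest of a comparison, where their WT/Veh level was highest or lowest, and where they led their role group, and other members were named after their values were seen. Of 57 other presynaptic genes, 56 were found and 55 tested. The labels do not say whether mice of a group came from separate litters, and no libraries of a group agreed within sampling noise (chi-square per degree of freedom of 16.1 or more). Leaving out the 3 mice with the highest thalamus and habenula score (5xFAD/D-45113 2M and 4F, WT/D-45113 1F), leaving out 5xFAD/D-45113 1M and 4F, and testing the interaction with sex were chosen after seeing the data.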

Additional observations from a re-analysis of the deposited data

Results flagged for a closer look

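Of 136 sets of 8 mice (34 members in 4 groups), 7 held a mouse far from the other 7, which is 5.15%, and chance flags about 1 in 20. In 5xFAD/Veh mice these were Syp in 4M (163.4 FPKM, next highest 133 FPKM), Sv2b in 3F (97.7 FPKM, next 64.9 FPKM) and Amph in 3F (60.4 FPKM, next 47.2 FPKM). In WT/D-45113 mice they were Sv2a in 1F (157 FPKM, next 115 FPKM), Vamp1 in 1F (26.6 FPKM, next 15.0 FPKM) and Syt4 in 3M (35.6 FPKM, next lowest 51.2 FPKM). In WT/Veh mice it was Sv2c in 1M (40.5 FPKM, next 24.2 FPKM). Mouse 1F of WT/D-45113 had the second highest thalamus and habenula score of the 32 mice (1.74), and the part of this in its Vamp1 and Sv2a levels was not tested.

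Amph lay on opposite sides of the WT mean under the 2 treatments. All 8 5xFAD/D-45113 mice were below the WT/D-45113 mean (the mean FPKM in 5xFAD/D-45113 mice was 0.856 times that in WT/D-45113 mice), and all 8 5xFAD/Veh mice were above the WT/Veh mean. The interaction of genotype and treatment had a log2 value of -0.49 and did not pass the test (adjusted p = 0.363, edgeR).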

How the results depend on the processing

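In 5xFAD/D-45113 against 5xFAD/Veh mice, where 2 members were called, 1 member (Vamp1) was called with only the groups compared, in females only, with limma trend on log2(FPKM + 1) without a filter, with 1M and 4F of 5xFAD/D-45113 left out, and without the 3 mice of the highest thalamus and habenula score. In that order these fits called 504 of 15999, 116 of 17375, 361 of 33154, 188 of 17112 and 195 of 17016 genes. There were 0 calls in males only, where 0 of 16697 genes were called. There were also 0 with the thalamus and habenula score as a covariate (17 of 16723 genes called). Adding the choroid plexus score gave 0 as well (9 of 16723 genes called). Leaving out each mouse in turn gave 1 to 4 calls, and 355 to 1056 calls over all genes. In 5xFAD/D-45113 against WT/D-45113 mice, with 0 calls, DESeq2 called 2, limma voom 1, limma trend with a mean of at least 1 FPKM 1 on either log2 scale, and leaving out each mouse in turn gave 0 to 4. Over all genes DESeq2 called 1150 of 16723, limma voom 871 of 16723, and limma trend 825 and 816 of 12720. Leaving out each mouse gave 585 to 1152 calls over all genes. In 5xFAD/Veh against WT/Veh mice, 3 members were called in males only (478 of 16697 genes called) and 0 otherwise. No result changed sign among called values. The median of the members in 5xFAD/D-45113 against 5xFAD/Veh mice was -0.17, and it was -0.08 in males only, -0.09 with the thalamus and habenula score and -0.04 with both scores as covariates. Of the values of single members under the alternatives, 25 gained and 18 lost the call, and 2181 stayed as they were. The cause of the changes was not tested, and the fits on 1 sex or without a mouse also held fewer mice.

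The labels do not say whether the replicate number pairs the mice. The 48 pairs of the same number and sex in different groups had a median r of 0.05, from -0.23 to 0.28, with 17 pairs over 0.1. The other pairs between groups had a median r of -0.0091, and pairing was not tested further. With the number as a replicate block 2 members (Syn1 and Cplx2) were called in 5xFAD/D-45113 against WT/D-45113 mice, and with the number and sex as a block 1 (Cplx2). These fits called 1023 and 941 of 16723 genes. The low totals of 3F and 4F in 5xFAD/D-45113 may limit the precision for Syn3, Unc13b and Cplx3, the members of lowest level, which was not tested.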
